A study of Mus musculus with 6 samples.

Results

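The genes described here build and serve the cilium: subunits of the intraflagellar transport (IFT) complexes, the BBSome with its chaperonin, the motors that carry them, ciliary cargo adaptors, and components of the transition zone at the base of the cilium. They were chosen by gene symbol: every symbol of the form Ift or Bbs followed by digits, plus 22 symbols listed by name. The rule itself used no measured value, but it was set with earlier results of these data known. Of the 22, 19 were found, and Arl6, Arl13b and Rpgrip1l were not analysed here. With the 22 genes found by the Ift and Bbs patterns this gave 41 genes of the 18193 that have a probe set with a single gene symbol, measured by 67 probe sets.

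Dissociated olfactory epithelium of CD1 mice was separated by flow cytometry on ICAM1 (CD54), stained with a fluorescein-coupled antibody. ICAM1 is an adhesion protein carried by horizontal basal cells, the resting stem cells of this tissue, and also by endothelial and immune cells. There were 3 litters, aged postnatal day 21, 22 and 24. From each litter both fractions, with and without ICAM1, were collected, and after 2 rounds of RNA amplification every fraction went onto a separate Affymetrix mouse array. All mice were of the 1 strain, without a stated allele or treatment, and a sort pools the cells of a litter. A sort is a mixture of cell types, and a lower intensity in it can reflect fewer cells of a type or less RNA per cell, which cannot be told apart in these bulk samples.

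Cilia are assembled by trains of IFT proteins that run along the axonemal microtubules. The IFT-B complex is carried towards the tip by kinesin and brings building material, and the IFT-A complex is needed for the return by dynein and for the entry of membrane proteins. The BBSome is a coat that rides on these trains and moves receptors in and out of the ciliary membrane, and the transition zone is the gate that both must pass. In the olfactory epithelium the sensory neurons bear long immotile cilia that hold odorant receptors and the transduction cascade, loss of BBSome proteins impairs smell, and multiciliated cells lie in the neighbouring respiratory lining.

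Many ciliary genes carry an X-box, the site of RFX transcription factors, near their start. The RefSeq promoter table (GRCm38.p6; 250 bases before to 50 after a start site) held 39 windows for 36 of the 41 genes, and Dync2li1, Ift80, Ift81, Ift122 and Tmem67 had no entry. The X-box core GTTGCC, searched on both strands, was present in 18 of the 39 windows (46.2%), against 12.5% of all 32851 windows and 12.6% of the 21263 windows of protein-coding genes. A full X-box, written as GTTNCC and GGNAAC separated by 0 to 3 bases, a pattern that can contain the core, was present in 5 windows (12.8%), against 0.804% of all windows. The forkhead site GTAAACA was present in 0 of the 39 windows and in 3.65% of all windows. These are matches of letters within the windows and not measured binding sites. The 4 full X-boxes that lie before the start site are shown first, because members with this motif fall among those that passed the test and those that did not; capitals mark the X-box.
Bbs7: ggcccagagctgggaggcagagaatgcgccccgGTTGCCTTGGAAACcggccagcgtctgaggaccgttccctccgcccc
Ift57: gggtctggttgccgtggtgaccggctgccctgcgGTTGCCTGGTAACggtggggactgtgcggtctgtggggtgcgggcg
Tctn3: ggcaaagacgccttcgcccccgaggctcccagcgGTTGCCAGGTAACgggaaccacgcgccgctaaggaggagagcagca
Mks1: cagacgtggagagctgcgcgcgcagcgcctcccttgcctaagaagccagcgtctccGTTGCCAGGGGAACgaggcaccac

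In gene orientation these stretches lie at chr3:36613464-36613543 on the minus strand for Bbs7, at chr16:49699200-49699279 on the plus strand for Ift57, at chr19:40612326-40612405 on the minus strand for Tctn3 and at chr11:87853135-87853214 on the plus strand for Mks1. The first base of the X-box lay at -121, -60, -140 and -24 relative to the start site, in that order. The fifth full X-box, in Tctn1, began 36 bases after the start site and is not printed. Cores alone are shown for the kinesin genes Kif17 and Kif3a and for Ift140, an IFT-A subunit, as members of other groups that fell; capitals mark the core, which is on the opposite strand in Ift140.
Kif17: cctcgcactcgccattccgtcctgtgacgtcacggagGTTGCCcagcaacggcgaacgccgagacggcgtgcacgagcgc
Kif3a: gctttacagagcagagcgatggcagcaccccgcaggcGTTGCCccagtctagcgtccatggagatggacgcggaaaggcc
Ift140: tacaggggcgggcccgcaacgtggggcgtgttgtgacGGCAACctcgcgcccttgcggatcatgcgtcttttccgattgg

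These lie at chr4:138262141-138262220, chr11:53567234-53567313 and chr17:25015940-25016019, all on the plus strand. By group, the core was found in 1 of 2 IFT-A windows, 4 of 9 IFT-B, 3 of 7 BBSome, 3 of 5 motor, 7 of 12 transition zone, 0 of 2 chaperonin and 0 of 2 cargo windows. It was in 15 of the 27 genes with a window that were lower in ICAM1-positive cells and in 3 of the 9 that did not pass the test, against 14.1% of all genes with a window. The full X-box was in 3 of those 27 and in 2 of those 9, against 0.936% of all genes.

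Values are linear array intensities, scaled by the authors to a common trimmed mean, and log2 differences subtract ICAM1-negative from ICAM1-positive cells and carry the standard error of the limma fit; a gene was called when its Benjamini-Hochberg adjusted p over 38694 probe sets was under 0.05. Icam1, the antigen of the sort, read 13, 16.1 and 33.2 in ICAM1-negative cells, against 7246.5, 6817.2 and 6857.1 in ICAM1-positive cells. This follows the sample titles, while the free-text descriptions name the opposite population. Over the whole array 20.8% of 16399 genes were lower and 20.6% were higher in ICAM1-positive cells. Their median difference was -0.06. Array medians ran from 87.9 to 102.8, and these serve below as a guide to background because no detection calls were used here.

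Genes of ciliary transport were lower in ICAM1-positive cells, and none was higher. Of the 41 genes 31 fell (75.6%, against 20.8% of all genes), 0 rose and 10 did not pass, with a median difference of -1.40, a 2.64-fold lower intensity. The direction was the same in every litter for all 41 genes, with medians of -1.37, -1.44 and -1.29 in litters 1, 2 and 3. The intensities of the 2 sorts did not overlap for 38 of the 41 genes, all with the ICAM1-negative arrays above. Over all genes 30.1% lay apart in that direction and 27.8% in the other. Of the 31 genes that fell, 25 fell by 2-fold or more, a size for which no share over all genes was counted. Of the 41 genes, 5 were called with a fall of 4-fold or more, against 7.9% of all genes. So few genes are not read as a trait of the group. All 41 genes had at least 1 probe set past the filter on low values, and in ICAM1-positive cells 39 of them still read above the array median on all 3 arrays, the exceptions being Kif17 and Tmem67. The number of genes that fell was 21 without litter 1, 24 without litter 2 and 20 without litter 3.

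**Figure D1:**
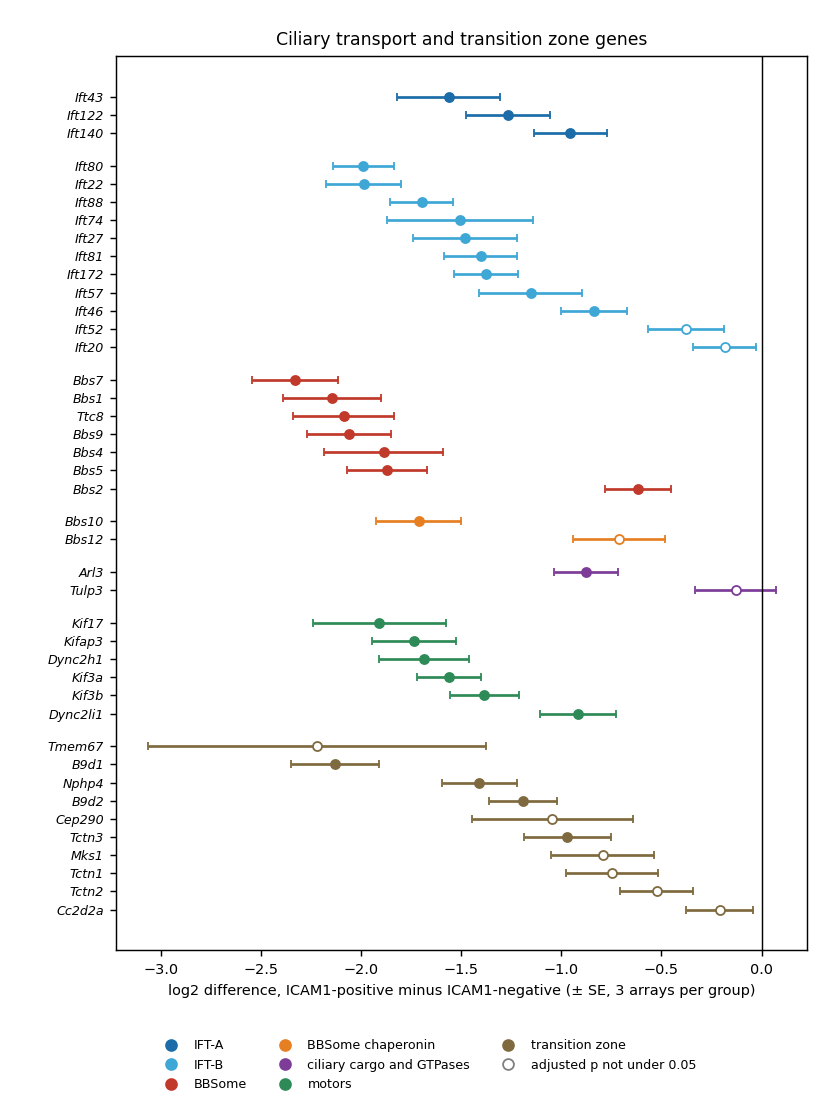
Log2 difference between ICAM1-positive and ICAM1-negative cells for each of the 41 genes (x axis; point, estimate; bar, standard error; 3 arrays per group), grouped by function on the y axis, with open points for genes whose adjusted p was not under 0.05. All points lie below 0, from -2.33 for Bbs7 to -0.13 for Tulp3 on the side of higher intensity in ICAM1-negative cells.

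Single probe sets showed the same direction. Of the 65 kept of 67 probe sets, 47 were lower, 0 were higher and 18 did not pass. Over the array 34.9% of probe sets differed, 18% lower and 16.9% higher. For 14 genes 2 or more probe sets were kept, and all of these had differences below 0, although sizes varied within a gene. The 4 probe sets of Kif3a were all called, from -2.15 to -1.37, as were the 3 of Kif17. Of these, the probe set used for the gene gave -1.91 and another, dim on all ICAM1-positive arrays, was at least 2.51-fold lower. The third read 30.2, 78.8 and 37.3 against 3.6, 9.9 and 5.7, below the array median on every array, and its difference of -2.92 has no exact size. Those of Bbs4 ran from -2.05 to -0.83 and those of Kif3b from -1.66 to -0.89, each with 3 of 4 called. Tctn3 had the widest range, from -2.85 to -0.97. Its probe set with the larger difference read 82, 67.8 and 61.3 in ICAM1-negative and 10.6, 10.5 and 8.1 in ICAM1-positive cells, below the array median on every array, so the size of that difference is uncertain. None of the 3 probe sets of Tulp3 was called, from -0.80 to -0.13.

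**Figure D2:**
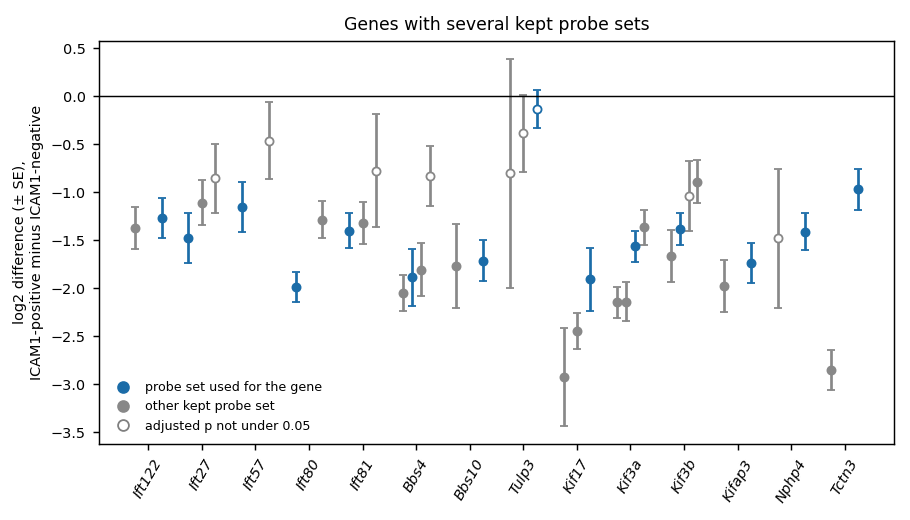
Log2 difference (y axis; point, estimate; bar, standard error; 3 arrays per group) of every kept probe set of the 14 genes with more than 1 (x axis), in blue for the probe set that stands for the gene and grey for the others, open where the adjusted p was not under 0.05. All points lie below 0, and those of Tctn3 lie at -2.85 and -0.97; the lowest points of Tctn3 and Kif17 come from probe sets below the array median on all arrays.

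The IFT-A subunits fell, 3 of 3, with a median of -1.26. Ift43, which encodes a small subunit at the edge of the complex, read 3731.3, 6047.9 and 5038.5 in ICAM1-negative cells of litters 1, 2 and 3 and 1439.5, 2025.6 and 1516.6 in their ICAM1-positive cells. It was 2.95-fold lower (-1.56 ± 0.26, adjusted p = 0.00545), and its lowest ICAM1-negative array was above its highest ICAM1-positive array. Ift122, a core subunit of the complex, read 3363.3, 3797.9 and 4052.3 against 1315.7, 1915.9 and 1481.6 (-1.26 ± 0.21, adjusted p = 0.00558). Ift140, another core subunit, read 2788.4, 3487.2 and 3460.1 against 1627, 1546.2 and 1837.8 (-0.95 ± 0.18, adjusted p = 0.0098). The groups did not overlap for either gene. These calls depended on single litters. Without litter 3 the adjusted p was 0.0751 for Ift43, 0.0786 for Ift122 and 0.0817 for Ift140, so that 0 of 3 were called. Without litter 1 it was 0.0555 for Ift122 and 0.0666 for Ift140, so that 1 was called, and without litter 2 it was 0.0684 for Ift140.

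Of the 11 IFT-B subunits 9 fell and 2 did not pass, with a median of -1.40. Ift80, a subunit mutated in a skeletal ciliopathy, read 3360, 3239.3 and 3135.7 in ICAM1-negative and 801.8, 838.9 and 812.1 in ICAM1-positive cells. The arrays of each sort lay close together and the fall was 3.97-fold (-1.99 ± 0.15, adjusted p = 0.000381). Ift22, a small GTPase-like subunit, read 1097.5, 1390.6 and 1190.8 against 271.2, 322 and 334.1, a 3.96-fold fall (-1.99 ± 0.19, adjusted p = 0.000695). Ift88, without which cilia do not form, read 2165.9, 2028.4 and 2053 against 600.1, 674.7 and 653.4 (-1.70 ± 0.16, adjusted p = 0.000659). None of the 3 genes had overlapping groups.

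The other IFT-B genes that fell ranged from -1.51 to -0.84. Ift74 (-1.51 ± 0.36) and Ift81 (-1.40 ± 0.18) encode partners that together bind tubulin, Ift27 (-1.48 ± 0.26) encodes a GTPase that links the trains to BBSome exit, and Ift172 (-1.38 ± 0.16) encodes the largest subunit. Ift172 was very even in ICAM1-positive cells, at 676.7, 676.6 and 683.3, against 1633.7, 1910.9 and 1749 in ICAM1-negative cells. Ift57 (-1.15 ± 0.26) and Ift46 (-0.84 ± 0.16) fell least among those called. Ift46 was not called with any litter removed (adjusted p = 0.0973, 0.0605 and 0.0873 without litters 1, 2 and 3), and Ift27 without litter 2 (0.0502) or litter 3 (0.0808). Ift74 lost its call without litter 1 (0.159) or litter 2 (0.0727) and without ICAM1-negative array 1 (0.0714) or 2 (0.0507) or ICAM1-positive array 1 (0.0661) or 3 (0.0744). Ift57 lost its call without litter 1 (0.123) or litter 3 (0.0987), without ICAM1-positive array 1 (0.0589) or 3 (0.0605), and with its probe sets averaged (0.0883).

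Ift20 and Ift52 did not pass the test. Ift20, the IFT-B subunit that also acts at the Golgi, read 1032.3, 1012.4 and 1054.1 in ICAM1-negative and 969, 922.1 and 840.3 in ICAM1-positive cells. The groups did not overlap, but the difference was small (-0.18, 95% interval -0.57 to 0.20, adjusted p = 0.421). Ift52, which anchors the IFT-B core, read 1105.9, 1112.4 and 1071.1 against 721.6, 1013.2 and 819.9 (-0.38, 95% interval -0.85 to 0.09, adjusted p = 0.183). The intervals are for each gene alone. That of Ift20 reached down to -0.57 and that of Ift80 up to -1.61, so the 2 did not meet, although the difference between genes was not itself tested.

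Of the BBSome, 7 of the 7 subunits chosen by symbol fell, with the lowest median of the groups at -2.06, a 4.17-fold lower intensity. Bbs7, a propeller subunit, read 1404.6, 1404.8 and 1111.3 in ICAM1-negative and 210.8, 296.2 and 275.8 in ICAM1-positive cells. It fell by 5.03-fold (-2.33 ± 0.21, adjusted p = 0.000648), the largest called fall of the 41 genes. Bbs1, the subunit that binds the ARL6 GTPase and is often mutated in Bardet-Biedl syndrome, read 2218.3, 2811.4 and 2669.1 against 485.9, 771.6 and 511.8 (-2.15 ± 0.24, adjusted p = 0.00135). Ttc8, known also as BBS8, read 3270.7, 2528.6 and 3515.3 against 663.6, 601.6 and 948.9 (-2.09 ± 0.25, adjusted p = 0.00168). In all 3 genes the sorts were well apart in every litter.

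Bbs9 (-2.06 ± 0.21), Bbs4 (-1.89 ± 0.30) and Bbs5 (-1.87 ± 0.20) fell by a similar amount, between 3.66-fold and 4.17-fold. Bbs2, which pairs with Bbs7 and Bbs9 in the core of the coat, was the exception in size. It read 853.2, 802.9 and 910.6 against 602.5, 516.8 and 553.6, without overlap (-0.62 ± 0.16, adjusted p = 0.0314). Its call was lost when any litter was left out (adjusted p = 0.154 without litter 1, 0.0892 without litter 2 and 0.205 without litter 3). It was also lost without ICAM1-negative array 1 (0.0847), 2 (0.0548) or 3 (0.085) and without ICAM1-positive array 1 (0.065), 2 (0.083) or 3 (0.0977). The 95% interval of Bbs2 (-1.02 to -0.22) did not meet that of the next smallest fall, Bbs5 at -2.36 to -1.38, or that of any other subunit, of which Bbs4 came nearest (-2.62 to -1.16). The difference between the genes was not tested.

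Of the chaperonin-like genes that fold BBSome subunits, Bbs10 fell and Bbs12 did not pass. Bbs10 read 415.3, 553.7 and 461.6 in ICAM1-negative and 151.5, 165 and 120.5 in ICAM1-positive cells, without overlap (-1.71 ± 0.21, adjusted p = 0.00182). Bbs12 read 314.8, 482.7 and 311.8 against 214.9, 235 and 212.8 (-0.71, 95% interval -1.28 to -0.15, adjusted p = 0.0583). Bbs12 passed when dim values were set to the array median (adjusted p = 0.017), with a stricter filter (0.0299), with probe sets averaged (0.0421) and with a variance trend (0.0337).

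**Figure D3:**
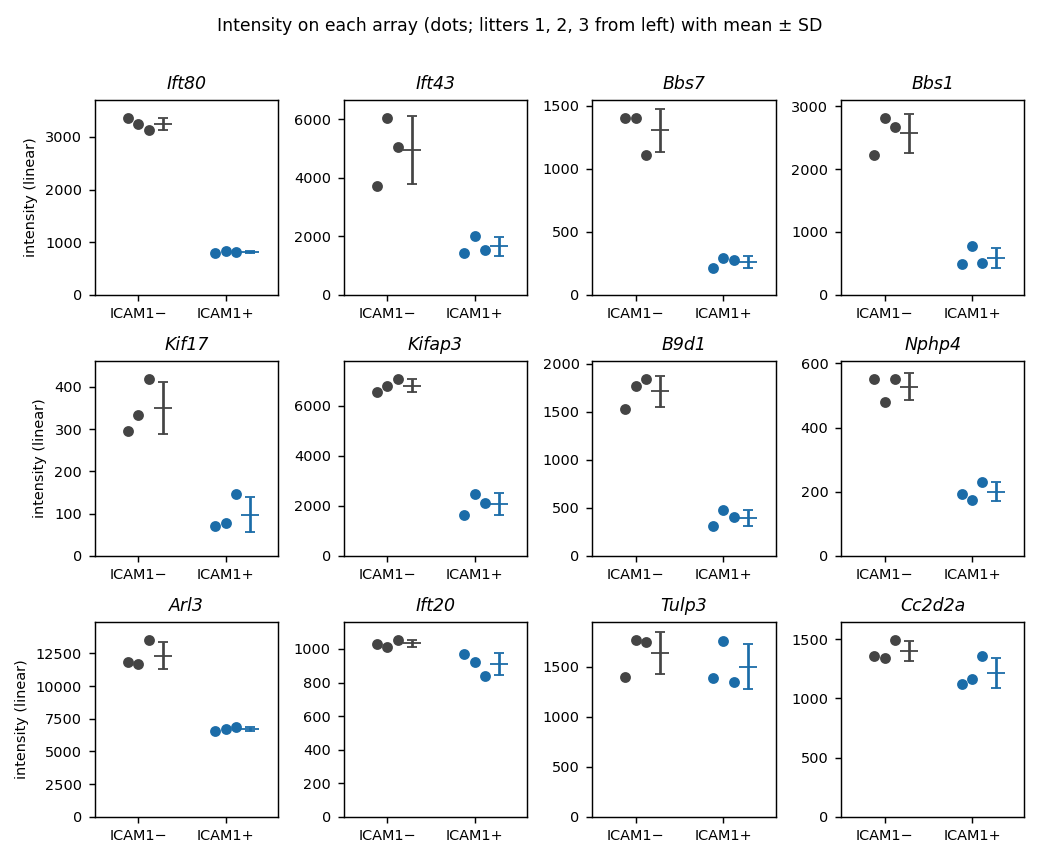
Linear intensity (y axes, from 0) on each of the 6 arrays for 12 of the genes, with dots for litters 1, 2 and 3 from left to right within each sort and the mean ± SD (n = 3) beside them. The sorts are well apart for genes such as Ift80 (3135.7 or more against 838.9 or less) and Bbs7, and lie close together or overlap for Ift20, Tulp3 and Cc2d2a.

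Of the cargo genes chosen by symbol, Arl3 fell and Tulp3 did not pass. Arl3, the GTPase that releases lipid-modified proteins inside the cilium, read 11806, 11659.4 and 13532.2 in ICAM1-negative and 6524, 6713.1 and 6864 in ICAM1-positive cells. It fell by 1.84-fold without overlap (-0.88 ± 0.16, adjusted p = 0.00821) and lost the call without litter 1 (0.0911) or litter 3 (0.0922). Tulp3, an adaptor that brings membrane receptors to the IFT-A complex, read 1402.6, 1770.9 and 1748.2 against 1390.1, 1761.2 and 1353.8. Its groups overlapped, and the litter differences of -0.01, -0.01 and -0.37 place it nearest to 0 of all 41 genes (-0.13, 95% interval -0.62 to 0.36, adjusted p = 0.664).

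All 6 motor genes fell, with a median of -1.62. Kif17, a homodimeric kinesin that enters olfactory cilia, read 296.6, 334.1 and 418.8 in ICAM1-negative and 70.2, 76.8 and 145.5 in ICAM1-positive cells, where 2 of the 3 arrays lay below the array median. The size of its fall is therefore uncertain (-1.91 ± 0.33, adjusted p = 0.00678, and -1.66 with low intensities raised to the median). Its call was lost without litter 1 (0.0574) or litter 2 (0.071). Kifap3, the adaptor of the heterotrimeric IFT kinesin, read 6540.3, 6795.7 and 7075 against 1623.5, 2472.1 and 2126.1 (-1.73 ± 0.21, adjusted p = 0.00172). The motor subunits of the same kinesin, Kif3a and Kif3b, fell by 2.95-fold (-1.56 ± 0.16) and 2.61-fold (-1.38 ± 0.17). By the probe set used for each, the 3 genes of this motor lay within 0.35 of each other on the log2 scale. This closeness depends on that choice, because kept probe sets ran from -2.15 to -1.37 for Kif3a and from -1.66 to -0.89 for Kif3b.

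For the return motor, Dync2h1, its heavy chain, read 2108, 1642.3 and 1310 against 525.7, 482.3 and 539.7 (-1.68 ± 0.22, adjusted p = 0.00245). The ICAM1-negative arrays spread more widely than the ICAM1-positive ones, but the groups did not overlap. Its light intermediate chain Dync2li1 read 2365.7, 1976.7 and 2738.2 against 1205.7, 1213.1 and 1304 (-0.92 ± 0.19, adjusted p = 0.0128). This call was lost without litter 1 (0.124) or litter 3 (0.103).

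Of 10 transition zone genes 4 fell and 6 did not pass (40% lower, against 20.8% of all genes), with a median of -1.01. This split depends on the threshold and the settings, as given below. B9d1, a B9-domain protein of the membrane gate, read 1531.3, 1771.9 and 1844 in ICAM1-negative and 312.1, 473.4 and 403.7 in ICAM1-positive cells, a 4.38-fold fall (-2.13 ± 0.22, adjusted p = 0.000922). Its partner B9d2 read 731.6, 889.2 and 805.9 against 365.8, 366.6 and 327.9 (-1.19 ± 0.17, adjusted p = 0.0031). The 95% intervals of the partners, -2.66 to -1.60 and -1.61 to -0.78, met only at their ends. B9d2 lost its call without litter 3 (0.0546).

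Nphp4, a nephronophthisis gene whose protein lies at the inner edge of the zone, read 551.6, 478.1 and 550.6 against 192.5, 173.7 and 231.7 (-1.41 ± 0.19, adjusted p = 0.00246). Tctn3, a tectonic that spans or borders the ciliary membrane, read 990.9, 757.3 and 808.9 against 466.1, 350.4 and 494.4 (-0.97 ± 0.22, adjusted p = 0.0175). The groups did not overlap for these genes. Tctn3 lost its call without litter 1 (0.121), 2 (0.0538) or 3 (0.0888) and without ICAM1-negative array 1 (0.0581), and 2 of 10 genes were called without litter 3.

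Of the 6 transition zone genes that did not pass, Mks1, Tctn1 and Tctn2 had groups that did not overlap. Those of Tmem67, near background and given below, did not overlap either. The other tectonics read 323.6, 258.4 and 275 against 132.9, 174.7 and 209.2 for Tctn1 (-0.75, adjusted p = 0.0508) and 797.4, 601.5 and 757.8 against 490, 494.9 and 504.3 for Tctn2 (-0.52, adjusted p = 0.0723). Mks1, a B9-domain gene of Meckel syndrome, read 413, 378.2 and 414 against 248.3, 166.5 and 300.4 (-0.79, adjusted p = 0.0591). These 3 genes lay just past the threshold: Mks1 passed without ICAM1-positive array 3 (0.0486) and Tctn2 without ICAM1-negative array 2 (0.0488), and 8 of 10 genes of the group were called when dim values were set to the array median, 7 with a stricter filter or probe sets averaged, and 9 with a variance trend.

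Cep290, the large protein that links microtubules to the ciliary membrane, read 970.2, 691.6 and 375.9 in ICAM1-negative and 412.7, 258.2 and 269.4 in ICAM1-positive cells. Its groups overlapped (-1.05 ± 0.40, adjusted p = 0.0966), and litter 3 was the lowest of the ICAM1-negative arrays. The call appeared without that array (adjusted p = 0.0292) and with litter as a paired block (0.0498). Tmem67, a membrane receptor of the zone, read 107.9, 77.2 and 68.8 against 28.4, 4.6 and 43.3. It lay near background in both sorts, so its difference of -2.22 ± 0.84 (adjusted p = 0.0933) has no exact size and shrank to -0.02 with low intensities raised. Without ICAM1-positive array 2 its adjusted p was 0.0411. Cc2d2a, a scaffold of the same gate, read 1361.1, 1345.8 and 1495.3 against 1121.9, 1164.8 and 1355.7, with overlap (-0.21, 95% interval -0.62 to 0.21, adjusted p = 0.393).

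**Figure D4:**
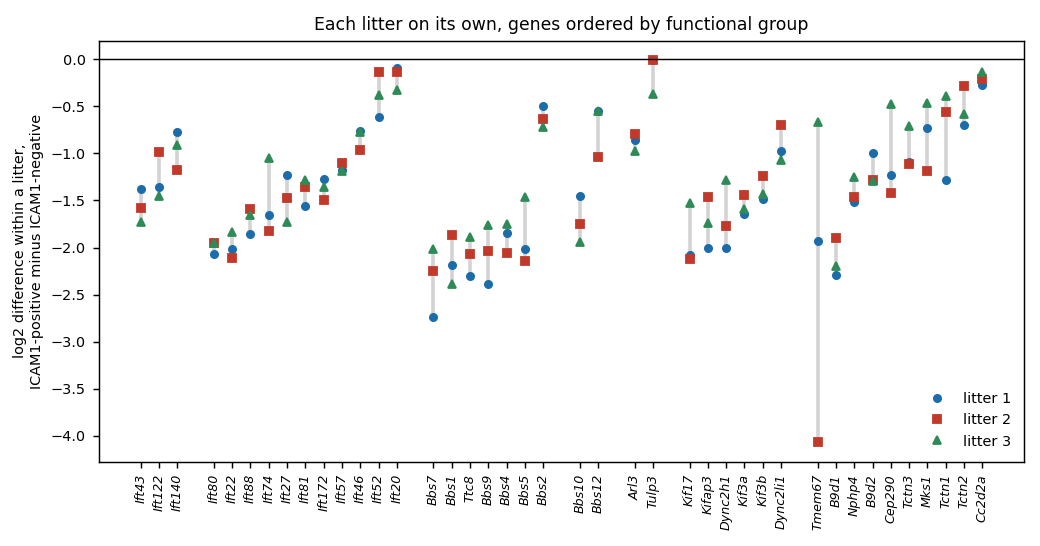
Log2 difference between the ICAM1-positive and the ICAM1-negative array of the same litter (y axis) for each of the 41 genes (x axis, ordered by functional group), with a symbol per litter and a grey line over their range. All 123 differences lie below 0; the widest range is that of Tmem67, from -4.07 to -0.67, while that of Ift80 runs from -2.07 to -1.95.

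Related genes that the symbol patterns do not catch were taken from a list of cilium genes. Of 71 measured, 39 fell (54.9%, against 20.8% of all genes) and 5 rose (7.04%, against 20.6%). The other 27 did not pass, and the median of the 71 was -0.94. The rises include Bbip1, whose probe sets disagree, and with the probe sets of each gene averaged 3 genes rose. Without litter 1 the counts were 23 lower and 2 higher, without litter 2 they were 36 and 3, and without litter 3 they were 22 and 3. Of 11 further IFT genes 9 fell (81.8%) and 1 rose (9.09%), with a median of -1.75. The largest falls were those of Rabl2, a GTPase that associates with IFT-B (1746.1, 2088.9 and 1851.8 against 276.4, 345.4 and 361.4; -2.54 ± 0.19, adjusted p = 0.000354), and of Ttc30b, an IFT-B subunit (4784.4, 5481.6 and 5710.2 against 914.9, 994.9 and 1002.7; -2.45 ± 0.17, adjusted p = 0.000279). Ttc21b, the IFT-A subunit known as IFT139, rose instead, from 572 ± 23.5 to 982 ± 78.3 (SD, n = 3; 0.78 ± 0.16, adjusted p = 0.013). The call of Ttc21b was lost without litter 1 (0.106), 2 (0.0638) or 3 (0.106) and with its probe sets averaged (0.08).

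Among the other BBSome-related genes 2 of 6 fell, the centrosomal Sdccag8 (-1.10 ± 0.18) and the BBSome regulator Lztfl1 (-0.87 ± 0.26), and 1 rose. These shares, 33.3% lower and 16.7% higher, stand beside 20.8% and 20.6% of all genes. So few genes are not read as a trait of the list. Sdccag8 lost its call without litter 1 (0.0545) or 3 (0.0558), and Lztfl1 without any 1 of the 3 litters (0.0872 to 0.21). Lztfl1 also lost it with no filter (0.0644), with median centring (0.0535), without ICAM1-negative array 1 (0.119) or 2 (0.109) and without ICAM1-positive array 1 (0.1), 2 (0.0773) or 3 (0.14). Its other probe sets were lower too, at -1.77 (adjusted p = 0.0015), -1.34 (0.00516), -0.84 (0.038) and -0.8 (0.132, not called). The gene that rose was Bbip1, the smallest BBSome subunit, but its probe sets disagreed. The one with the highest mean read 1244.4, 2303.2 and 1077.7 in ICAM1-negative and 6860.4, 12204.8 and 6692.6 in ICAM1-positive cells (2.50 ± 0.39, adjusted p = 0.00443, or 0.0503 without litter 1). The other 2 probe sets were lower in ICAM1-positive cells (-2.08, adjusted p = 0.00246, and -1.15, adjusted p = 0.0304), and averaging the 3 gave -0.24 (adjusted p = 0.568). A direction for Bbip1 is therefore not given. Mkks, the third chaperonin-like gene, stood at 443 against 816 and did not pass (0.85, adjusted p = 0.0501).

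Of 13 further genes of the transition zone and the adjoining inversin compartment 6 fell (46.2%) and 1 rose (7.69%), with a median of -0.67. Rpgr, a regulator of cargo entry mutated in retinal degeneration, fell by 1.89 ± 0.31 (adjusted p = 0.00511, or 0.0657 without litter 1) and Tmem107, a membrane protein of the zone, was 3.67-fold lower (adjusted p = 0.00156). Nek8, a kinase of the inversin compartment, rose from 104 ± 17.5 to 438 ± 59.7 (SD, n = 3; 2.08 ± 0.21, adjusted p = 0.000922). Its ICAM1-negative arrays lay near the array medians, with 1 of them below, so the size is uncertain. With low intensities raised to the median the difference was 2.05. Of 7 further motor genes 3 fell (42.9%), led by the kinesin Kif3c (-2.14 ± 0.22) and the dynein intermediate chain Wdr34 (-1.51 ± 0.19), and 1 rose (14.3%). The latter was Kif7, a kinesin of Hedgehog signalling at the ciliary tip, with its ICAM1-negative arrays near background (2.34 ± 0.54, adjusted p = 0.0195, at least 1.41-fold when dim values were set to the array median, where the call was lost at 0.115). Its adjusted p was 0.133 without litter 2, 0.058 without litter 3, 0.0585 without ICAM1-negative array 2, and 0.0627 and 0.0536 without ICAM1-positive arrays 1 and 2.

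Cargo and assembly genes held larger falls than any of the 41. Of 12 cargo and trafficking genes 6 fell (50%, against 20.8% of all genes) and 0 rose (median -0.74). Tub, a tubby-family relative of Tulp3 expressed in neurons, read 1878.3, 2039.5 and 2033.8 in ICAM1-negative and 101.6, 149.6 and 147.2 in ICAM1-positive cells (-3.92 ± 0.21, adjusted p = 0.000176). Pde6d, the carrier whose cargo Arl3 releases, fell by 8.25-fold (-3.04 ± 0.18). Of 14 basal body genes 9 fell (64.3%) and 0 rose (median -1). The largest falls were those of Ccp110, a cap of the mother centriole, at 9.47-fold (-3.24 ± 0.19), and of Cep83, a distal appendage gene (-1.67 ± 0.38). Cep83 lost its call without litter 1 (0.144) or 2 (0.054), without ICAM1-negative array 1 (0.06) and without ICAM1-positive array 1 (0.0577) or 3 (0.0616). Its other probe sets were lower too, at -2.34 (adjusted p = 0.000307) and, for a dim one, -1.1 (0.0291).

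Of 8 transcription factors of cilium genes 4 fell (50%) and 1 rose (12.5%), with a median of -1.18. Foxj1, among those that fell, is listed again with the multiciliated cell markers below. Rfx2 did not pass by the probe set used for the gene (-0.64, adjusted p = 0.143). Its other kept probe sets were lower (-1.78, adjusted p = 0.00324, and -1.97, adjusted p = 0.00102), with ICAM1-positive means near background (48 and 50.9). Rfx3, of the family that binds X-boxes, read 5946.1, 6530.9 and 5764.1 in ICAM1-negative and 746.3, 1182.2 and 706.3 in ICAM1-positive cells. This was a 7.11-fold fall without overlap (-2.83 ± 0.25, adjusted p = 0.000557). Binding of Rfx3 to the stretches printed above was not measured. Rfx4 was at least 1.98-fold lower, with its ICAM1-positive arrays near background (adjusted p = 0.00137). Rfx5, a member of the family known for control of class II antigen presentation genes, rose from 788 ± 46 to 1873 ± 182 (SD, n = 3; 1.25 ± 0.17, adjusted p = 0.00262, or 0.0518 without litter 1).

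Marker genes of neurons, their precursors and multiciliated cells fell in the same arrays. Of 10 markers of mature olfactory neurons 9 fell and 0 rose (median -3.50), and their summed intensity was 92872 to 106362 in ICAM1-negative and 6281 to 12179 in ICAM1-positive cells. Of 7 immature neuron markers 7 fell (median -3.86; sums 51547 to 66478 against 5362 to 8217), and of 11 multiciliated cell markers 9 fell and 0 rose (median -2.81; sums 9042 to 9511 against 799 to 1220). Of the multiciliated cell markers 7 lay below the array median on all 3 ICAM1-positive arrays, so their sizes are uncertain, and the list's median was -1.93 when dim values were set to the array median. Of 6 markers of globose basal cells and precursors, 5 fell and 1, Sox2, rose (median -3.06; sums 17373 to 18300 against 9653 to 13091). Sox2 read 1979.5, 3285.1 and 2067.2 against 7902.1, 11486.6 and 8676, and made up most of the ICAM1-positive sums. Foxj1, the master regulator of motile cilia, read 405.5, 216.2 and 561.9 against 42.7, 50.3 and 66, below the array median on each ICAM1-positive array. The summed intensity of the 41 ciliary genes was 82258 to 86751 against 33598 to 37273. Their median of -1.40 lay between that of all genes and those of these 4 marker lists. In the opposite direction, 10 of 10 horizontal basal cell markers rose (sums 816 to 1235 against 100249 to 103866). These include Icam1, on which the cells were sorted, so its rise adds nothing separate. Also higher were 8 of 8 macrophage markers (1490 to 1933 against 22112 to 31615) and 5 of 7 sustentacular markers (19624 to 33788 against 64530 to 70615). The sustentacular markers that did not pass were Cyp2g1 (-0.29, adjusted p = 0.661) and Cyp1a2 (-0.69, adjusted p = 0.342). Sox2, which rose, stands in this list and in that of globose basal cells. Of 5 endothelial markers 1 rose (20%, against 20.6% of all genes) and 0 fell (sums 233 to 244 against 324 to 416). Of these markers, 4 lay below the array median on all 3 ICAM1-positive arrays and 0 lay above it on all 3 ICAM1-negative arrays. Their sums are therefore near background. No marker was listed at 0. The part of these cell types in the falls of the ciliary genes was not tested.

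**Figure D5:**
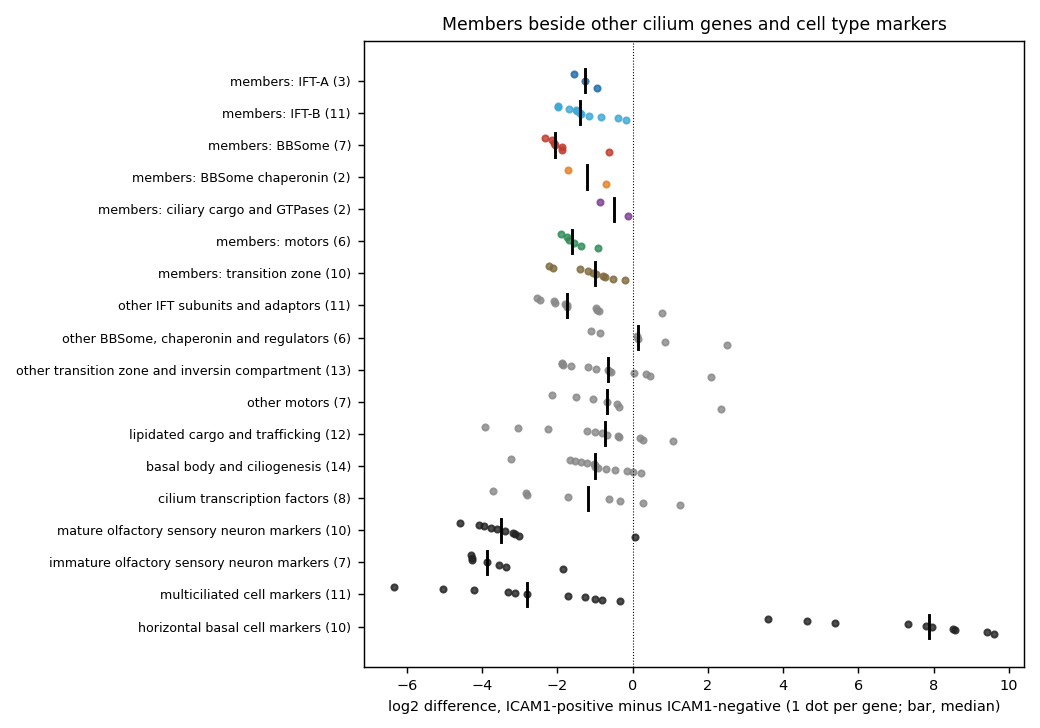
Log2 difference of single genes (x axis; 1 dot per gene; black bar, median) for the 7 groups of ciliary transport genes, 7 lists of other cilium genes and 4 lists of cell type markers (y axis, number of genes in parentheses). The ciliary transport medians lie between -2.06 and -0.50, above the neuron markers at -3.50 and -3.86 and far below the horizontal basal cell markers at 7.88.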

How the data were processed

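Expression was measured in 6 samples, both sorted fractions of each of 3 litters. The authors deposited linear intensities for 45101 probe sets. GCRMA is named in the submitters' processing notes and yields log2 values of near-equal quantiles, but the deposited values had unequal quantiles and a trimmed mean of 500 on every array, and were treated as scaled linear signals. The program and background correction were not given in the sources used here, nor were detection calls. The number of arrays limits the precision.

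Groups came from the titles. After log2 transformation, 64 control probe sets were left out and probe sets above 4 on at least 3 arrays were kept (38694). Names came from the platform table; 34945 probe sets had 1 symbol, 932 several and 9160 none. A gene was represented by its kept probe set with the highest mean log2 intensity. Differences were fitted with limma 3.58.1 in R 4.3.3 without a litter block. The fit was also run on simulated data, which had no litter structure and so cannot test the lack of a block. A fold written as at least N raises intensities under the array median to that median. Alternatives were litter as a block, low-value handling, filters, normalization, variance trend, averaged probe sets, and leaving out litters or arrays. Per the labels, sorts of the same number share a litter; deviations of same-numbered arrays from their group means correlated at 0.127, 0.199 and 0.081. P-values rest on the spread between litters, whose ages also differed.

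The members, the gene lists and the tests were chosen with earlier results of these data known, so the counts are descriptions. By rule, values on each array were given for up to 3 members per group with the largest called difference and no overlap, and for members that did not pass; of each list of other cilium genes, up to 2 called rises and 2 called falls were named. Other array values, the other probe sets of Lztfl1 and Cep83, and the genes Foxj1, Mkks, Rfx2, Sox2, Cyp2g1 and Cyp1a2 were added after their values were seen.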

Additional observations from a re-analysis of the deposited data

How the results depend on the processing

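Of the 31 genes that fell, 18 kept their call under all 17 alternatives, and all 41 kept their direction under each. Leaving out litters or arrays gave 20 to 31 genes lower, 0 to 3 in the IFT-A group, 2 to 5 in the transition zone, 0 to 1 among cargo genes, and 22 to 37 lower and 2 to 6 higher among the other cilium genes. Over all probe sets it gave 3678 to 6013 lower and 3764 to 5854 higher. The chaperonin count rose to 2 with dim values set to the array median, a stricter filter, a variance trend or averaged probe sets. The transition zone count rose under the same settings to 8, 7, 9 and 7. Averaging probe sets lowered the other cilium genes that rose to 3 and reversed Bbip1 (-0.24). The cause was not tested.

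With litter as a replicate block 32 of the 41 genes were lower (31 without it), with 7476 probe sets lower and 6899 higher over the array; Cep290 gained a call and no other call among the 41 changed. The alternatives for the other cilium genes were added after the data were seen. Low intensities limit Tmem67, Kif17, Kif7, Nek8, Rfx4 and Foxj1, whose sizes are uncertain.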
